A study of Rattus norvegicus with 48 samples.

Results

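The class II genes of the rat major histocompatibility complex (MHC) and their activator were followed through RNA-seq libraries of primary cortical cultures. They were taken by symbol and are 8 of the 30211 genes listed: RT1-Da, RT1-Db1, RT1-Ba, RT1-Bb, RT1-DMa, RT1-DMb, Cd74 and Ciita. The cultures came from Sprague-Dawley rat fetuses of gestation day 18, were grown for 21 days in vitro, and gave 48 libraries in 16 groups of 3. Cultures were untreated (Control) or received 25 µM cocaine for a period of 24 h, 6 ng/mL Tat for a period of 48 h, or both (Tat-Cocaine). In further groups each of 4 compounds was given alone, with Tat, or with Tat and cocaine. These were 4OI (4-octyl itaconate, a cell-permeable itaconate ester, 250 µM), Amlexanox (an inhibitor of the kinases TBK1 and IKKε, 25 µM), Tazemetostat (an inhibitor of the histone methyltransferase Ezh2, 3 µM) and Senicapoc (a blocker of a calcium-activated potassium channel, 1 µM). Tat is the HIV-1 transactivator, here added to the medium as a protein. The study's figure legends place 4OI together with Tat for 48 h, before any cocaine. Sample labels give no timing for the compounds. No source says that the 3 libraries of a group came from separate animals, so the p-values below measure the spread between these libraries, which may be technical.

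Class II molecules are pairs of an alpha and a beta chain that carry peptides from the endosomes to the cell surface, where helper T cells read them. The invariant chain, made by Cd74, fills the groove of new pairs until it is cut away, and the DM pair (RT1-DMa and RT1-DMb) then exchanges its last fragment for peptide. Ciita is the co-activator that, brought to the promoters of these genes by factors already bound there, switches the family on together. In the brain, class II is low on resting microglia, the resident macrophages, and is a common sign of their activation.

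The promoters of the chain genes share letters. RefSeq promoter windows (build GRCr8, from 250 bases before to 50 after the gene's start) were found for 6 of the 8 genes. The class II promoter is known for an X box, which binds the RFX complex, followed by a Y box, which binds NF-Y. The stretches shown run 5′ to 3′ on the gene's strand and were chosen because 5 genes of the family hold the Y letters there. Capitals mark TGATTGG for the Y box and, upstream of it, GNNACNG at the X box. Both sets of letters were picked after these windows had been read, and they do not overlap.
RT1-Da: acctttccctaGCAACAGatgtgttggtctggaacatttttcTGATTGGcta
RT1-Db1: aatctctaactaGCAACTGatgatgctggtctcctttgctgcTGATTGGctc
RT1-Ba: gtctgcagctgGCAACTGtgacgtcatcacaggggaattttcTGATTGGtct
RT1-Bb: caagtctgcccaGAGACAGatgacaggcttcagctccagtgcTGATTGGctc
RT1-DMa: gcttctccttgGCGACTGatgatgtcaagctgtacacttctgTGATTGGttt

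They lie at chr20:4515322-4515373 on the plus strand (RT1-Da), chr20:4560235-4560286 on the minus strand (RT1-Db1), chr20:4576970-4577021 on the plus strand (RT1-Ba), chr20:4604172-4604223 on the minus strand (RT1-Bb) and chr20:4712392-4712443 on the minus strand (RT1-DMa). The Y letters began 45 to 82 bases before the start of the gene, and the X letters began 30 or 31 bases before the Y letters. Of 33469 promoters, 88.1% held the short X letters on either strand and 7.06% the Y letters. Both on the gene's strand at this spacing, which was itself read from the 5 genes, were found in 16 promoters (0.0478%), the 5 shown and 1 further class II gene, RT1-Ha, among them. The Cd74 window held no Y letters. A match is a description of the sequence, and binding was not measured.

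Values are CPM (the reads of a gene relative to the size of its library, as scaled by the authors), and depth lay between 17.5 and 29.1 M reads per library, so that 0.5 CPM stood for 8.58 to 14.96 reads. Tests were made with limma on log2(CPM + 0.5) over the 15890 genes that reached 0.5 CPM in 3 or more libraries, in 1 fit to all 48 libraries, and a gene was called at an adjusted p (Benjamini-Hochberg FDR) under 0.05. Fold changes are on this scale, which understates the change of genes near 0. CPM is not divided by gene length, so levels are compared between groups and not between genes. Of the 8 genes, 6 passed the filter. RT1-Bb and Ciita passed it through the Tat libraries, with 2 and 0 of the 18 libraries without Tat at 0.5 CPM or more, against 7 to 18 of 18 for the other 4. Labels call the cells neurons, and the libraries also hold other cells. In Control, 5 neuron genes summed to 1520 to 2107 CPM, 5 astrocyte genes to 8762 to 9372 CPM and 12 genes of myeloid cells and microglia to 985 to 1669 CPM. In bulk libraries more cells of a type and more RNA per cell cannot be told apart. 1 library stood apart for these genes, Amlexanox replicate 3, and results that rest on it are given with and without it.

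The DM pair was counted at close to 0 in every library. RT1-DMa had 26 reads in all 48 libraries together, at most 4 in 1 library (0.170 CPM), and RT1-DMb had 22, at most 3 in 1 library (0.106 CPM). In the 3 Tat libraries RT1-DMa had 0 reads, which allows up to 0.0479 CPM over the group (3 reads, counting error only), and RT1-DMb had 3. Neither passed the filter, and neither could be tested. The sources name different rat genome builds for the counting, and the part of the build and its gene models in these low counts was not tested. The promoter of RT1-DMa, shown above, holds both sets of letters. The other pair that works in the endosome, DO, was split: RT1-DOa reached at most 0.142 CPM in any library, whereas RT1-DOb averaged 0.951 CPM in Control.

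**Figure D1:**
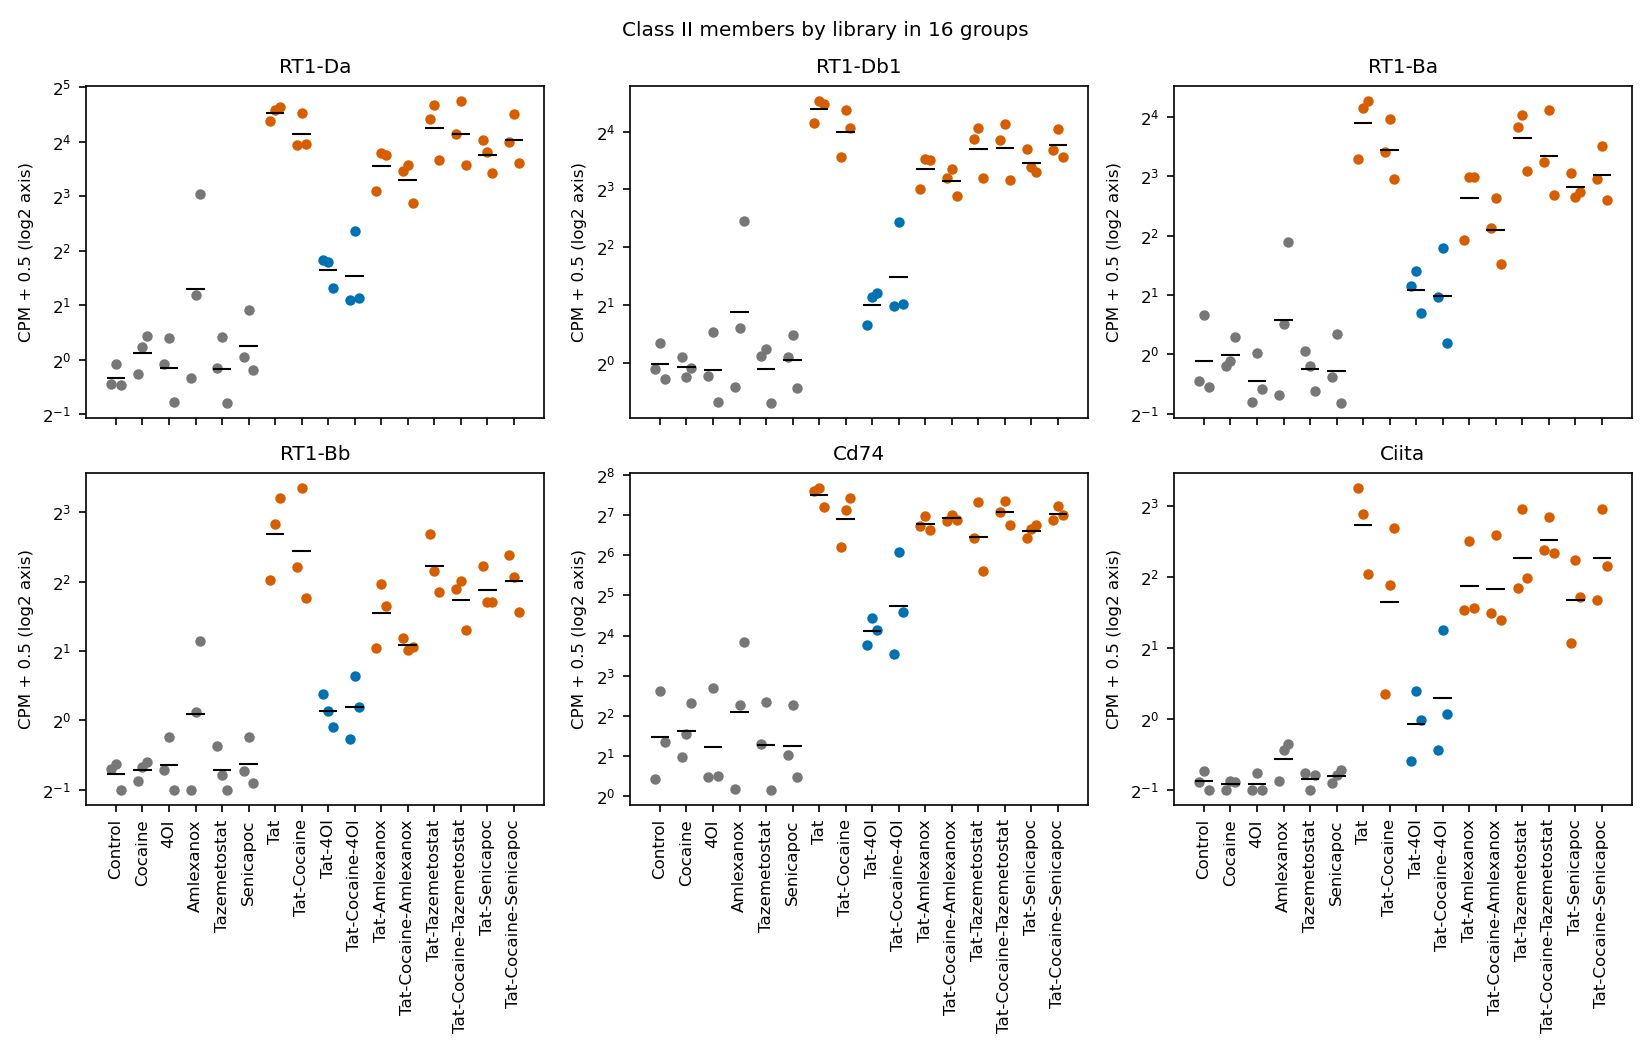
CPM + 0.5 on a log2 axis for 6 genes in 16 groups, with 1 point per library and a bar at the mean of the logarithms (grey, no Tat; orange, Tat without 4OI; blue, Tat with 4OI). The Tat groups without 4OI are highest for each gene, the Tat groups with 4OI are lower, and Amlexanox replicate 3 is the high grey point in the panels of the chain genes and Cd74.

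Tat against Control asks what the viral protein does to the cultures. All 6 tested genes rose, in a comparison in which 14.6% of all genes were called higher. Their median log2 fold change was 4.21 (range 3.46 to 6.03), against 0.01 over all genes tested. The share says how common a call was, and the sizes of the 6 rises are those of the genes that the filter kept.

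RT1-Da makes the alpha chain of the D molecule, the rat counterpart of human HLA-DR. It stood at 0.230, 0.441 and 0.227 CPM in the 3 Control libraries and at 20.2, 23.4 and 24.3 CPM in the 3 Tat libraries. The groups lie far apart, and the rise was 29.1-fold (log2 4.86, SE 0.48, FDR 3.2e-09). RT1-Db1, its beta chain, was at 0.422, 0.760 and 0.318 CPM in Control and at 17.3, 22.6 and 21.7 CPM with Tat. The log2 fold change was 4.41 (SE 0.43, FDR 2.55e-09). Its values were whole numbers of reads in 29 of 48 libraries only (38 of 48 for RT1-Bb). It may share reads with the near copy RT1-Db2, which was not tested, so its level is uncertain.

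RT1-Ba and RT1-Bb make the alpha and beta chains of the B molecule, the counterpart of HLA-DQ. RT1-Ba was at 0.230, 1.08 and 0.182 CPM in Control and at 9.33, 17.2 and 18.7 CPM with Tat. Its log2 fold change was 4.02 (SE 0.48, FDR 1.03e-07). RT1-Bb rose from 0.115, 0.147 and 0 CPM to 3.55, 6.62 and 8.75 CPM, a log2 fold change of 3.46 (SE 0.38, FDR 2.46e-08). In both genes Tat replicate 1 was the lowest of the 3, and still above each Control library.

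Cd74, the invariant chain, had 0.844, 5.69 and 2.04 CPM in Control and 193, 205 and 147 CPM with Tat. Its rise was 65.3-fold (log2 6.03, SE 0.67, FDR 3.5e-08). Control replicate 2 was the highest Control library for Cd74 and for each of the 4 chain genes. Over the 16 groups replicate 2 was the highest of the 3 libraries in 12 groups for Cd74 and in 7 to 12 for the other 5 genes.

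Ciita, the activator, had 1, 2 and 0 reads in the Control libraries and 9.02, 6.90 and 3.59 CPM with Tat. Its fitted log2 fold change of 3.60 (SE 0.44, FDR 1.62e-07) depends on the 0.5 CPM added. By reads alone, 404 in Tat against 3 in Control gave a ratio of 147 (95% exact interval 50.05 to 717, counting error only). Ciita was thus near the floor in cultures without Tat, and well above it with Tat.

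With cocaine alone the genes were at a low level. None of the 6 was called and 0 of 6 had an unadjusted p under 0.05 by limma (0.201% of all genes were called), and each gene's Cocaine libraries overlapped those of Control. For Cd74 they stood at 1.46, 2.42 and 4.50 CPM, and the log2 difference was 0.15 (95% interval −1.22 to 1.52). At this depth a modest change of the other 5, whose Control means lie under 1 CPM, was not detectable.

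With cocaine on top of Tat the genes were again high. All 6 rose against Control (8.63% of all genes called higher), with a median log2 fold change of 3.79. Cd74 stood at 72.8, 139 and 170 CPM, RT1-Da at 14.9, 22.6 and 15.1 CPM and Ciita at 0.766, 3.19 and 5.92 CPM. Ciita had the smallest rise, log2 2.51 (SE 0.44, FDR 0.000108), and its FDR was 0.0563 when the fit used those groups alone. This comparison shares its Control libraries with the one above.

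Against Tat alone, Tat-Cocaine means were lower for each of the 6 genes, with 0 called by limma (0.0189% of all genes called). The unadjusted p was under 0.05 for 1297 of all 15890 genes tested, and for 1 of the 6. That gene was Ciita, at log2 −1.09 (SE 0.44, FDR 0.578). The other 5 lay between −0.58 and −0.25, and each gene's groups overlapped.

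**Figure D2:**
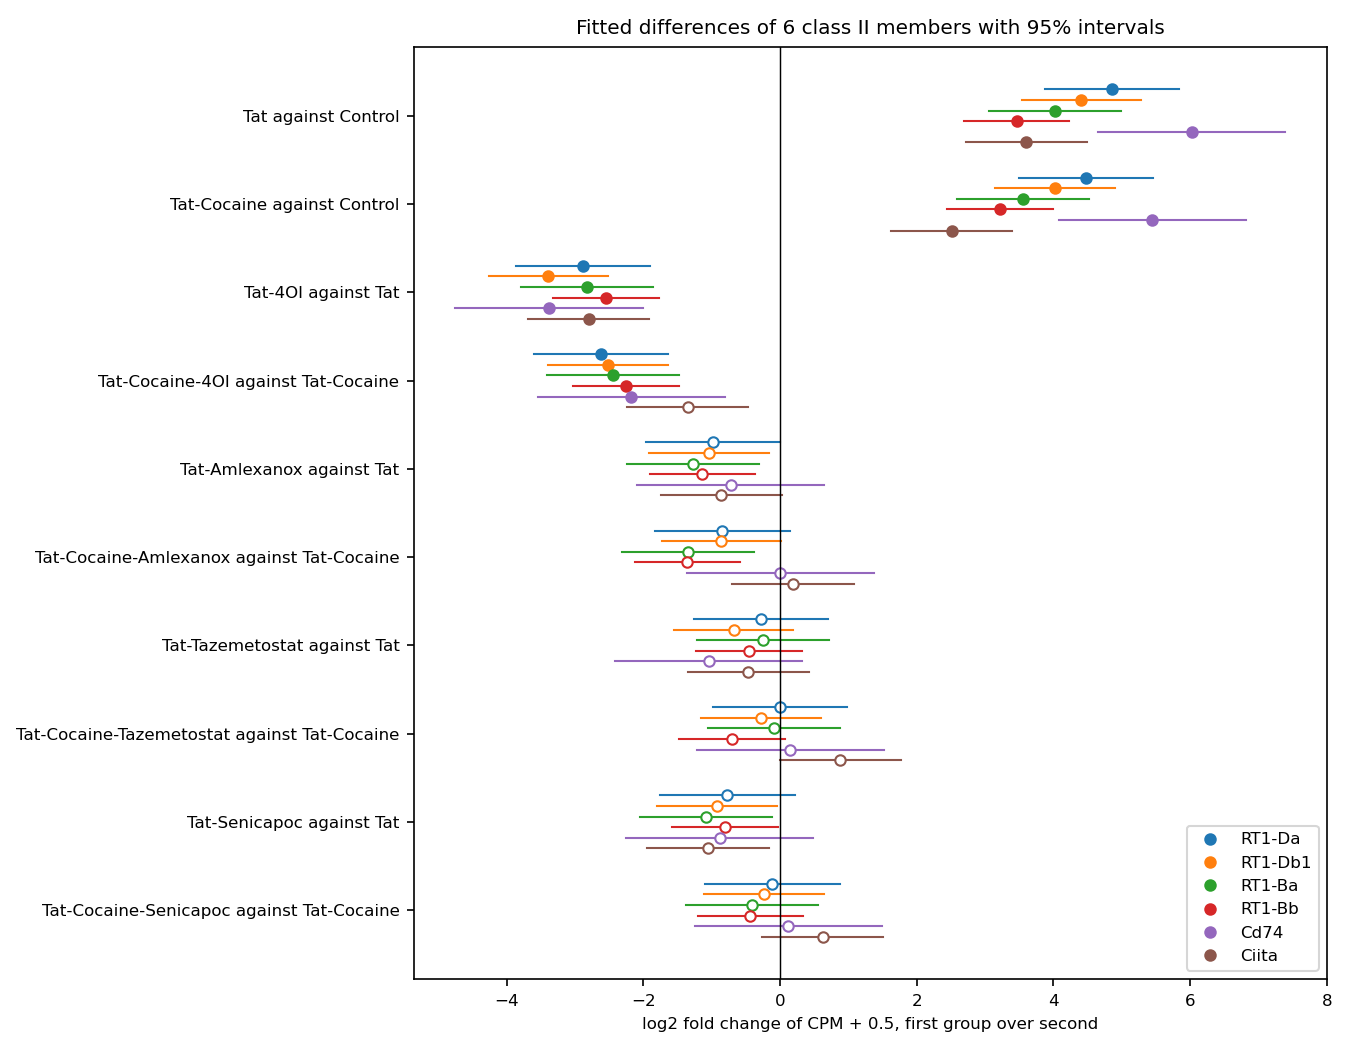
Fitted log2 fold change of 6 genes in 10 comparisons, with 95% intervals as lines; filled points are called at FDR under 0.05 and open points are not. The first 4 comparisons carry the calls, with log2 values of 2.51 to 6.03 in the first pair and −3.39 to −1.35 in the second, where Ciita with cocaine is the open point.

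4OI lowered the class II genes in Tat cultures. Against Tat alone, all 6 fell in Tat-4OI (9.48% of all genes called lower), with a median log2 fold change of −2.85 (range −3.39 to −2.55; 0.00 over all genes). The mean CPM left was 7.41% (RT1-Db1) to 11.8% (RT1-Da) of that with Tat, and for each gene all Tat-4OI libraries were below all Tat libraries.

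The chain genes fell to a few CPM or less. RT1-Da was at 3.05, 2.96 and 1.99 CPM (log2 −2.88, SE 0.48, FDR 8.37e-05). RT1-Db1 was at 1.07, 1.69 and 1.80 CPM, a fall of log2 −3.39 (SE 0.43, FDR 1.12e-06). RT1-Ba was at 1.71, 2.15 and 1.12 CPM, with log2 −2.82 (SE 0.48, FDR 9.1e-05). All these values are above the Control libraries of the same gene, so the level with 4OI lay between Control and Tat.

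RT1-Bb was at 0.803, 0.591 and 0.438 CPM with Tat and 4OI (log2 −2.55, SE 0.38, FDR 1.56e-05). Cd74 was at 13.1, 21.0 and 17.2 CPM (log2 −3.38, SE 0.67, FDR 0.00067). Ciita was at 0.161, 0.806 and 0.487 CPM (log2 −2.80, SE 0.44, FDR 3.23e-05). Within the group the order of the libraries differed between genes. Tat-4OI replicate 1 was the lowest for Ciita and Cd74 and the highest for RT1-Bb. In the Tat group, replicate 1 was the highest for Ciita and the lowest for each chain gene.

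With 4OI alone the genes were near 0, as in Control, and a fall would not have been detectable for most. None of the 6 was called against Control and 0 of 6 had an unadjusted p under 0.05 by limma (3.15% of all genes called). Cd74 was at 0.884, 5.95 and 0.917 CPM. Whether the Tat effect itself differed with 4OI was tested as an interaction (0.447% of all genes called lower). It differed for 4 genes: RT1-Da (−3.06 on the log2 scale, SE 0.68, FDR 0.0271), RT1-Db1 (−3.29, SE 0.61, FDR 0.00558), RT1-Bb (−2.67, SE 0.54, FDR 0.0104) and Ciita (−2.76, SE 0.62, FDR 0.0276). RT1-Bb (6 and 11 reads) and Ciita (3 and 2 reads) were near the floor in Control and 4OI. RT1-Da and RT1-Db1 were also low there, averaging 0.299 and 0.500 CPM in Control and 0.448 and 0.475 CPM in 4OI. The 4 interactions therefore nearly repeat Tat-4OI against Tat (−2.88, −3.39, −2.55 and −2.80 in the order given) and are not separate evidence. RT1-Ba (−2.48, FDR 0.0784) and Cd74 (−3.13, FDR 0.139) missed the threshold, and both were called with array weights (−2.04, FDR 0.00858, and −2.12, FDR 0.0362), whose estimate stopped short of its convergence tolerance. With 0.1 CPM added in place of 0.5, the 4 differences were larger (−3.42 to −3.27) and none passed (FDR 0.0564 to 0.106). RT1-Da and Ciita each lost the call when 1 of several libraries was left out, with FDR up to 0.0854 for RT1-Da (without Tat-4OI replicate 3) and up to 0.111 for Ciita (without Tat-4OI replicate 1).

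With cocaine present as well, 5 of the 6 fell in Tat-Cocaine-4OI against Tat-Cocaine (3.29% of all genes called lower). RT1-Da was at 1.64, 4.66 and 1.69 CPM (log2 −2.62, SE 0.48, FDR 0.000459). RT1-Db1 (log2 −2.52, FDR 0.000163), RT1-Ba (−2.45, FDR 0.000821) and RT1-Bb (−2.26, FDR 0.000134) fell by similar amounts. Cd74 was at 11.1, 67.1 and 23.5 CPM, with log2 −2.18 (SE 0.67, FDR 0.0417).

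Tat-Cocaine-4OI replicate 2 was the highest of its group for each of the 6 genes. Ciita, at 0.234, 1.87 and 0.545 CPM there, overlapped Tat-Cocaine, and its difference of −1.35 (SE 0.44, FDR 0.0523) was not called. Without Tat-Cocaine-4OI replicate 2, Ciita was called (−1.83, FDR 0.0112), as it was without Tat-Cocaine replicate 1 (−2.00, FDR 0.00358). Cd74 lost its call without Tat-Cocaine-4OI replicate 1 (FDR 0.201) or 3 (FDR 0.126), or without Tat-Cocaine replicate 2 (FDR 0.123) or 3 (FDR 0.117). Its call was also lost with 0.1 CPM added in place of 0.5 (FDR 0.0755) and with no filter (FDR 0.0619). A fit to 21 libraries of 7 groups gave Cd74 an FDR of 0.0817. In a fit to Tat-Cocaine-4OI and Tat-Cocaine alone, 1 gene, RT1-Da, was called.

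Genes of myeloid cells moved in the same comparisons. Of 12 such genes tested, 4 rose with Tat (Aif1, Itgam, Ptprc and Spi1; Itgam, a beta2 integrin chain, by log2 1.62, FDR 0.00269) and 1 fell. The list's median log2 difference was 0.67, and its summed level was 1444 to 2483 CPM in the Tat libraries. Of 5 astrocyte genes 2 fell with Tat, and of 5 neuron genes 0 were called. In Tat-4OI against Tat, 3 fell (Itgam, Csf1r and Spi1), the median was −1.03, and the sum was 614 to 1310 CPM. In Tat-Cocaine-4OI against Tat-Cocaine, 2 fell (Csf1r and Cd68) with a median of −0.83.

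The class II differences were larger than those of the myeloid list. Taken as the log2 level minus the mean log2 level of the 12 myeloid genes in the same library, Cd74 was 5.40 higher in Tat than in Control (SE 0.38), and the 6 genes were 2.83 to 5.40 higher, in all libraries. In Tat-4OI against Tat the same ratio was 1.55 to 2.39 log2 units lower for the 6 genes, in all libraries. With cocaine as well it was lower for 5 genes in all libraries, by 1.38 to 1.82, and for Ciita by 0.55 (SE 0.71) with overlap. In Tat-Cocaine-Amlexanox against Tat-Cocaine the ratio was also lower in all libraries for RT1-Da (−1.10), RT1-Db1 (−1.11), RT1-Ba (−1.60) and RT1-Bb (−1.61). In Tat-Cocaine-Senicapoc it was so for RT1-Da (−0.85), RT1-Db1 (−0.98) and RT1-Ba (−1.16). The remaining genes had lower means with overlap in both. Against Tat alone the ratio was lower in all libraries of Tat-Amlexanox for RT1-Db1 (−0.79), RT1-Ba (−1.02), RT1-Bb (−0.88) and Cd74 (−0.47). It was so for Cd74 and Ciita in Tat-Tazemetostat (−1.33 and −0.75) and in Tat-Senicapoc (−0.78 and −0.95). The other genes had lower means with overlap there. A lower ratio against Tat or Tat-Cocaine was thus shared by other compounds.

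**Figure D3:**
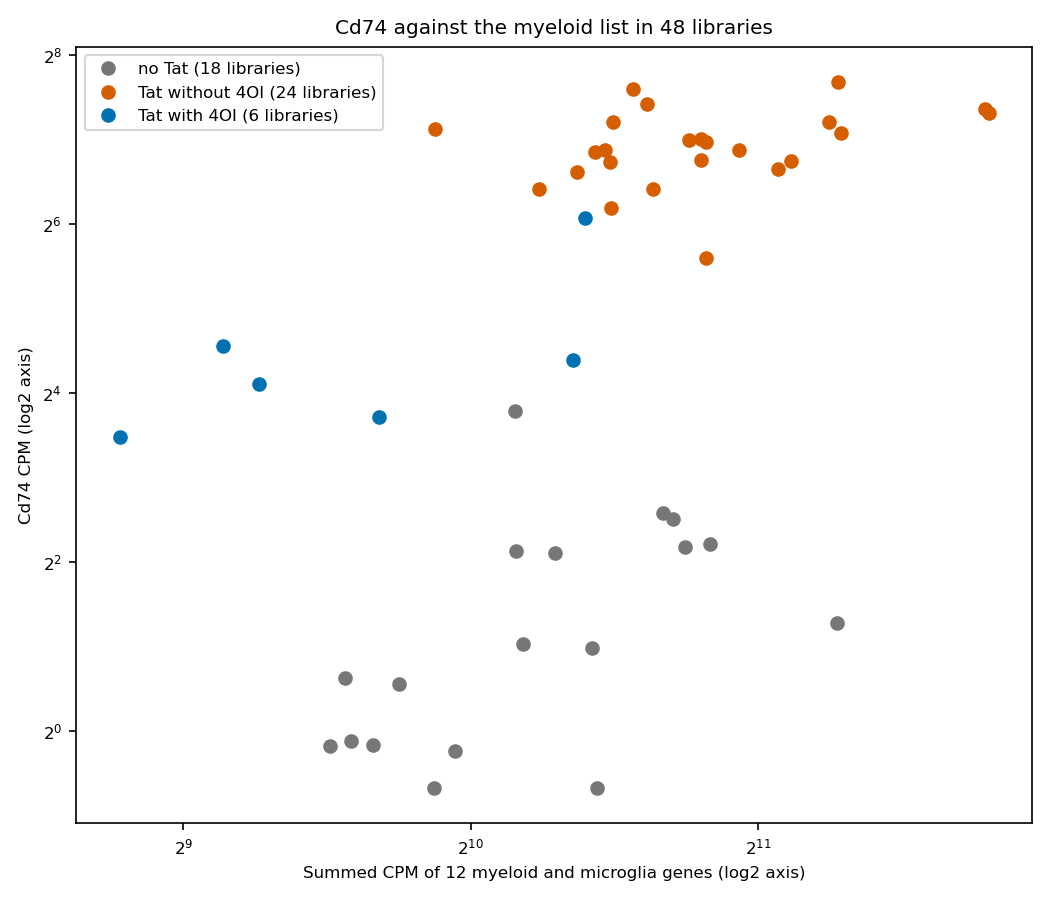
Cd74 CPM against the summed CPM of 12 myeloid and microglia genes in 48 libraries, both on log2 axes, with 1 point per library (grey, no Tat; orange, Tat without 4OI; blue, Tat with 4OI). Libraries with the same myeloid sum differ in Cd74 by group: the 18 libraries without Tat lie between 0.624 and 13.8 CPM and the 24 with Tat but not 4OI between 48.3 and 205 CPM.

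Markers of B cells, T cells and dendritic cells were near 0 or low, whereas border macrophage genes were well counted in Control. Ms4a1, which defines B cells, reached at most 0.0409 CPM in any library, and 4 T-cell genes at most 0.164 CPM. Of 5 dendritic cell genes Xcr1 reached at most 0.0496 CPM, Clec9a and Ccr7 stayed under 0.5 CPM, Flt3 reached 2.20 CPM and Zbtb46 9.85 CPM. Their sum was 9.99 to 11.5 CPM in Control, 6.74 to 8.32 CPM with Tat and 8.59 to 9.89 CPM in Tat-4OI, and Zbtb46 fell with Tat (log2 −0.45, FDR 0.00795). Cd79b, listed for B cells, was at 2.01 ± 1.34 CPM (SD, n = 3) with Tat, was called higher than in Control, and fell with 4OI. Genes of border macrophages went the other way with Tat, at a summed 501 to 563 CPM in Control and 216 to 306 CPM with Tat. They were lower again with 4OI (47.6 to 200 CPM), and the scavenger receptor Cd163 fell in both steps (log2 −2.86, FDR 0.000979, then −2.38, FDR 0.00839). The part of these cells in the class II differences was not tested.

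The genes upstream of class II moved unevenly. Of 6 tested factors that sit on class II promoters (Rfx5, Rfxank, Nfya, Nfyb, Nfyc and Creb1), 0 were called with Tat and 0 in Tat-4OI against Tat by limma. At an unadjusted p under 0.05 stood 1 with Tat, Nfya (log2 0.25, FDR 0.0824), and 2 with 4OI, Nfya (−0.29, FDR 0.0551) and Nfyc (−0.38, FDR 0.104). Rfx5, a subunit of the X-box complex, averaged 42.8 CPM in Control, and its log2 difference with Tat was 0.01 (SE 0.07). Rfxap stayed under 0.5 CPM in all libraries.

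Of 10 tested genes of interferon-gamma signalling and Ciita induction, 5 rose with Tat. They were both receptor chains, Ifngr1 (log2 0.83, FDR 0.0131) and Ifngr2 (0.78, FDR 0.00124), the receptor's kinase Jak2 (1.35, FDR 5.72e-08), the repressor Irf2 (0.29, FDR 0.0237) and the feedback inhibitor Socs1 (0.94, FDR 0.000321). The ligand gene Ifng stayed at or under 0.425 CPM in every library and was not tested. In Tat-4OI against Tat, 3 fell, among them Jak2 (−0.84, FDR 0.000296) and Socs1 (−0.52, FDR 0.0496), and Jak1 rose (0.38, FDR 0.000419).

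Of 7 genes of costimulation and class II turnover, 4 rose with Tat and fell with 4OI (Cd80, Cd40, Cd83 and Icam1). In all 5 rose with Tat: the T-cell ligand Cd80 (log2 1.20, FDR 0.0142), the receptor Cd40 (1.86, FDR 6.63e-05), Cd83 (1.31, FDR 0.0403), the adhesion molecule Icam1 (2.16, FDR 6.46e-05) and the ubiquitin ligase Marchf8 (0.50, FDR 0.0177). In Tat-4OI against Tat 5 fell: Cd80 (−1.29), Cd86 (−1.08), Cd40 (−1.70), Cd83 (−1.57) and Icam1 (−1.80), with FDR from 0.000404 to 0.0301. Cd86 with Tat (0.82, FDR 0.0886) and Marchf8 with 4OI (−0.14, FDR 0.532) were not called, and Marchf1, which turns class II over at the surface, was called in neither.

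Of 6 proteases and other genes that process antigen and the invariant chain, Ctsl (log2 0.76, FDR 0.00837) and Lgmn (1.00, FDR 0.0141) rose with Tat and fell with 4OI (−0.86, FDR 0.0049, and −1.02, FDR 0.0174). Ctss, the protease that trims the invariant chain, averaged 250 CPM in Control and 396 CPM with Tat and was not called. Of the further class II loci, RT1-DOb rose with Tat to 2.55 CPM (log2 1.12, FDR 0.00574) and fell to 0.932 CPM with 4OI (−1.07, FDR 0.0119). RT1-Db2 was called likewise at very low levels, 0.482 CPM with Tat and 0.0252 CPM with 4OI, and may share reads with RT1-Db1.

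**Figure D4:**
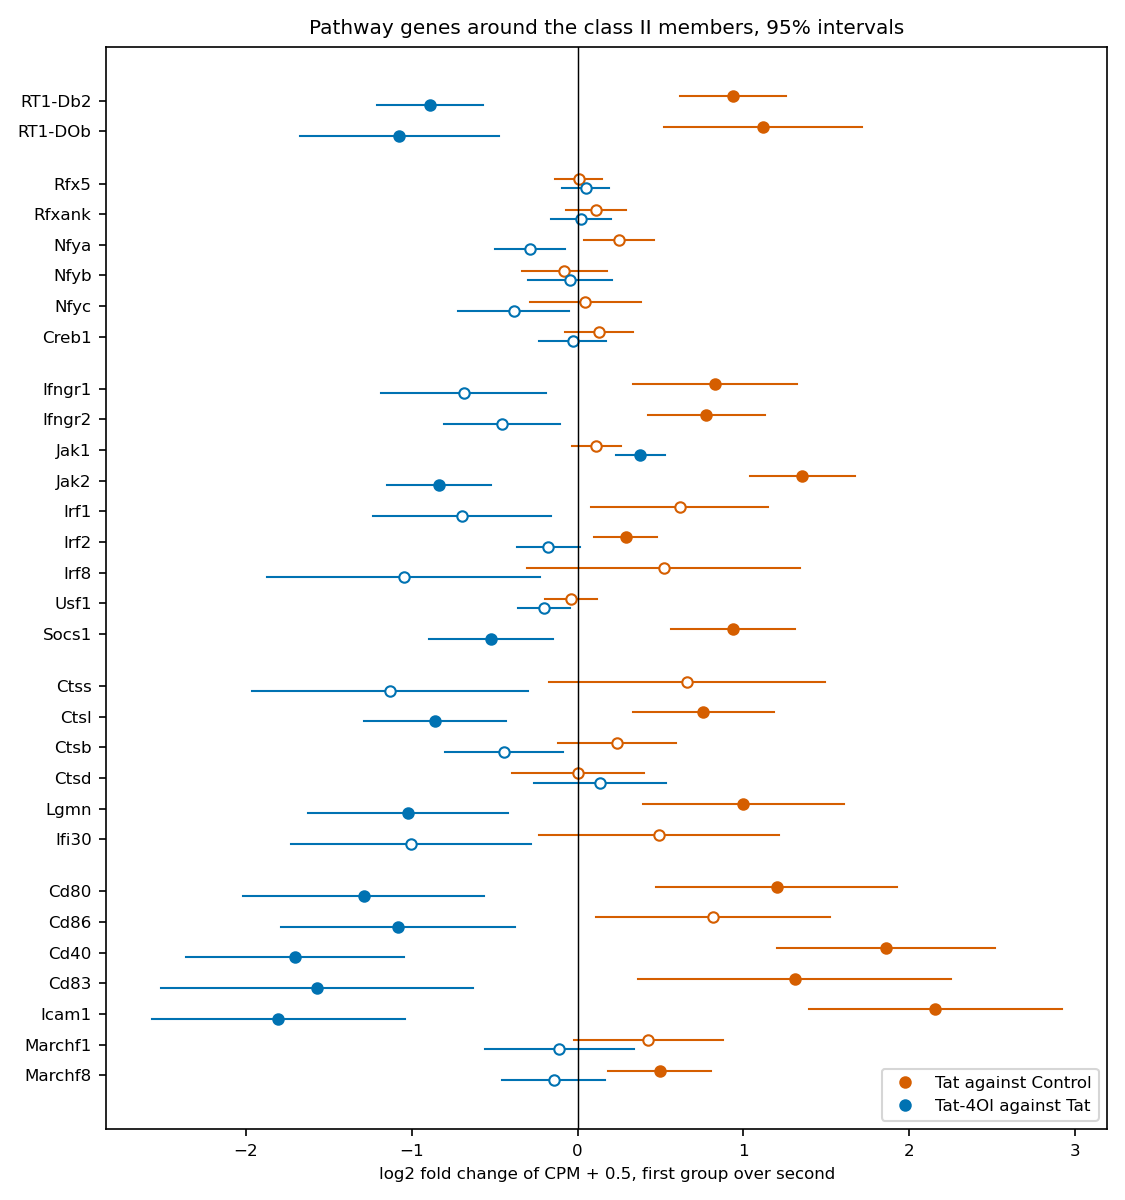
Log2 fold change with 95% intervals for 30 genes of class II loci, promoter factors, interferon-gamma signalling, processing and costimulation, in Tat against Control (orange) and Tat-4OI against Tat (blue); filled points are called. The 6 promoter factors lie within 0.38 of 0 in both, and Icam1 and Cd40 lie farthest out.

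Amlexanox in Tat cultures came with lower values that did not pass the test. In Tat-Amlexanox all 6 means were below Tat, by log2 0.72 to 1.27, with 0 called by limma (0.837% of all genes called). The unadjusted p was under 0.05 for 3 of the 6, and for 1988 of all 15890 genes tested. RT1-Bb was at 1.56, 3.39 and 2.64 CPM (log2 −1.14, SE 0.38, FDR 0.158) and RT1-Ba at 3.28, 7.39 and 7.46 CPM (−1.27, SE 0.48, FDR 0.226). For 5 of the 6 genes, all but Ciita, the Tat-Amlexanox libraries lay below the Tat libraries. The share of all genes separated in this way was not counted, and the 6 genes moved alike over the groups. The 95% interval was −2.24 to −0.30 for RT1-Ba and −2.09 to 0.65 for Cd74.

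In Tat-Cocaine-Amlexanox against Tat-Cocaine the chain genes had lower mean log2 levels, while that of Cd74 was nearly equal. RT1-Ba (log2 −1.35, FDR 0.141) and RT1-Bb (−1.36, FDR 0.07) were lower and all 4 chain genes lay below Tat-Cocaine in each library, while Cd74 stood at 116, 129 and 117 CPM (log2 0.00, SE 0.67) and Ciita at 2.31, 5.51 and 2.13 CPM (0.19, SE 0.44). By limma 0 of 6 were called (0.925% of all genes called). An unadjusted p under 0.05 was found for 2 of the 6, and for 2829 of all 15890 genes tested. Without Tat-Cocaine replicate 3, RT1-Bb was called (−1.70, FDR 0.0128). The mean log2 level of the 4 chain genes minus that of Cd74 was −3.41 ± 0.72 in Tat-Cocaine and −4.51 ± 0.24 in Tat-Cocaine-Amlexanox (SD, n = 3), and the libraries of the groups did not overlap. This difference has no test, and it was the 1 of 8 such comparisons (4 compounds, with Tat or with Tat and cocaine) without overlap. Groups of 3 without overlap reach a two-sided p of 0.1 at the least in an exact permutation test. Ciita minus Cd74 and Ciita minus the chain genes were looked at in the same 8 comparisons. They gave 1 and 0 without overlap, the 1 being Ciita minus Cd74 in Tat-Cocaine-Tazemetostat (0.73 higher than in Tat-Cocaine).

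With Amlexanox alone the 3 libraries differed widely, and the call depended on single libraries. RT1-Da was at 0.292, 1.78 and 7.72 CPM and was called higher than Control (log2 1.63, SE 0.48, FDR 0.0245; 3.75% of all genes called higher), the only one of the 6. Replicate 3 also held 4.96 CPM of RT1-Db1, 3.20 of RT1-Ba, 1.70 of RT1-Bb and 13.8 of Cd74, against at most 1.01, 1.08, 0.582 and 5.95 CPM in the other 17 libraries without Tat. Ciita stood at 0.278 CPM there, against at most 0.233, and the myeloid sum was 1140 CPM, near the median of 1161 in the other 17. The highest of these 17 was Amlexanox replicate 2 for RT1-Da (1.78 CPM), RT1-Db1 (1.01 CPM), RT1-Bb (0.582 CPM) and Ciita (0.233 CPM). Without replicate 3 the RT1-Da difference was 0.76 (FDR 0.451). It also missed the threshold without Amlexanox replicate 2 (FDR 0.0525) or Control replicate 3 (FDR 0.114). Without Amlexanox replicate 1, RT1-Db1 and RT1-Bb were called as well.

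The interaction of Tat with Amlexanox was called for RT1-Da (−2.61, SE 0.68, FDR 0.0416) and RT1-Bb (−2.00, SE 0.54, FDR 0.0463), with 0.428% of all genes called lower. It too depended on single libraries: without Amlexanox replicate 3 the values were −1.74 (FDR 0.236) and −1.47 (FDR 0.25). Both calls were lost without any 1 of several other libraries, the Tat, Tat-Amlexanox and Control groups included.

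No class II gene was called with Tazemetostat. In Tat-Tazemetostat against Tat 0 of 6 were called by limma and 0 had an unadjusted p under 0.05 (0% of all genes called). Cd74 was at 85.2, 159 and 48.3 CPM, a difference of −1.05 with a 95% interval of −2.41 to 0.32, and RT1-Da was at 20.7, 25.1 and 12.1 CPM (−0.28, interval −1.26 to 0.70). Tazemetostat alone gave 0 of 6, and 0 at an unadjusted p under 0.05 (0% of all genes called).

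In Tat-Cocaine-Tazemetostat against Tat-Cocaine, 28.7% of all genes were called, and 0 of the 6 class II genes, with 0 of 6 at an unadjusted p under 0.05. In the same comparison 7 of 12 myeloid genes rose (median log2 1.12) and 5 of 6 processing genes rose, among them Ctsd (1.16, FDR 0.00148). Cd74 differed by 0.15 (interval −1.22 to 1.52) and RT1-Da by 0.00 (interval −0.98 to 0.99). RT1-Bb was at 3.21, 3.52 and 1.97 CPM (−0.71, FDR 0.152) and Ciita at 4.69, 6.62 and 4.56 CPM (0.88, FDR 0.12). Both were called without Tat-Cocaine replicate 3, RT1-Bb lower (−1.05, FDR 0.044) and Ciita higher (1.40, FDR 0.0176). Relative to the myeloid mean the 6 genes were lower by 0.26 to 1.84 log2 units, with overlap between the libraries for RT1-Ba and Ciita. All 5 neuron genes fell in this comparison (median −1.03). The part of these cells was not tested.

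Senicapoc in Tat cultures gave lower means that were not called. In Tat-Senicapoc against Tat the 6 differences lay between −1.08 and −0.77, with 0 called by limma (0.409% of all genes called). At an unadjusted p under 0.05 stood 4 of the 6, and 2909 of all 15890 genes tested. RT1-Ba was at 7.84, 5.80 and 6.17 CPM, below each Tat library (−1.08, SE 0.48, FDR 0.228), and Cd74 at 85.2, 100.2 and 108 CPM (−0.88, SE 0.67, FDR 0.483). With cocaine as well 0 of 6 were called and 0 had an unadjusted p under 0.05 (0.0441% of all genes called), and Cd74 stood at 117, 148 and 128 CPM. Senicapoc alone gave 0 of 6, and 0 at an unadjusted p under 0.05 (0% of all genes called). The interactions of Tat with Tazemetostat and with Senicapoc gave 0 called by limma and 0 of 6 at an unadjusted p under 0.05 each (0% of all genes called in both).

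Across all groups the medians of each of the 6 genes fell into 3 levels, with some overlap between single libraries. Cd74 was at 48.3 to 205 CPM (median 121) in the 24 libraries with Tat but not 4OI, at 11.1 to 67.1 CPM (median 19.1) in the 6 with both, and at 0.624 to 13.8 CPM (median 2.01) in the 18 without Tat. For Cd74 the neighbouring levels overlap in 1 library each, Tat-Cocaine-4OI replicate 2 and Amlexanox replicate 3. RT1-Da was at 6.81 to 26.3, 1.64 to 4.66 and 0.0780 to 7.72 CPM in the same 3 sets. RT1-Bb was at 1.51 to 9.72, 0.328 to 1.05 and 0 to 1.70 CPM. RT1-Ba was at 2.36 to 18.7, 0.644 to 2.97 and 0.0686 to 3.20 CPM, so that all 3 of its sets overlapped. For RT1-Da, RT1-Ba and RT1-Bb, Amlexanox replicate 3 (7.72, 3.20 and 1.70 CPM) thus reached into the highest level. Ciita was at 0.766 to 9.02, 0.161 to 1.87 and 0 to 0.278 CPM, and its low end with Tat was Tat-Cocaine replicate 1. Tat alone had the highest mean for each of the 6 genes, and among the Tat groups without 4OI the comparisons made with Tat or Tat-Cocaine gave 0 calls, so their order is not shown beyond the spread between libraries.

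The 6 genes moved alike over the 16 group means, with Pearson r of 0.946 to 0.993 between pairs (a description over groups that fall into largely separate levels). The 5 genes of the whole table most like their mean standardised level were Map3k8 (r = 0.988), a kinase of inflammatory signalling, Tfr2 (0.987), Tmem171 (0.985), Birc2 (0.982), an inhibitor of cell death, and Slpil2 (0.982). For Map3k8 the mean was 3.87 CPM for Control, 32.7 for Tat and 7.2 for Tat-4OI.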

How the data were processed

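The signal the authors deposited is 1 value per gene and library: uniquely mapped reads of stranded libraries (STAR, featureCounts), scaled to CPM after TMM normalization in edgeR. The methods name the rat build Rnor_6.0 and the processing notes mRatBN7.2, so no gene positions were taken from the files. Of the values above 0, 85.0 to 87.3% were whole reads (tolerance 0.02 read), so that count tests were not used. Columns of group means and of the authors' own comparisons (fold changes and p-values) were not used. Values were analysed as log2(CPM + 0.5) with limma 3.58.1 in R 4.3.3 (lmFit, eBayes with a trend, 1 mean per group, no covariates), FDR under 0.05, and the code was tested on simulated data. The smallest two-sided p of an exact permutation test is 0.1 for groups of 3. The genes, lists and tests were chosen with earlier results of these data known. Named are the 8 genes, the fixed lists of pathway and marker genes, and the 5 genes with the highest Pearson r to the genes' mean standardised level over 16 group means. Of lists not taken up in the results, Tat against Control called 1 of 4 genes of the Ezh2 complex (Eed, higher), 0 of 3 of oligodendrocytes and 0 of 2 of fibroblasts, and 0 endothelial genes could be tested. Some genes of the lists are not reported here. Same-numbered libraries deviated together (each pair's correlation over 0.1) in 5 of 16 comparisons, Tat-Cocaine, 4OI, Tazemetostat and Senicapoc against Control and Tat-Amlexanox against Tat. The pairing comes from this check, since no source says what a number marks. Alternatives were the added constant, the filter, scaling, the trend, array weights, the groups in the fit, a replicate block, leaving out each library, and, chosen after seeing the data, a fit to the 21 libraries of 7 groups.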

Additional observations from a re-analysis of the deposited data

Results flagged for a closer look

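The Tat effect differed between cultures with and without a compound, by an interaction contrast in limma, for these genes. With 4OI it was lower by −3.06 log2 units for RT1-Da (FDR 0.0271), −3.29 for RT1-Db1 (FDR 0.00558), −2.67 for RT1-Bb (FDR 0.0104) and −2.76 for Ciita (FDR 0.0276). RT1-Bb and Ciita were near the floor in Control and 4OI, and RT1-Da and RT1-Db1 averaged under 0.5 CPM there. The values with 4OI therefore nearly repeat Tat-4OI against Tat and are not separate evidence. With Amlexanox the Tat effect was lower by −2.61 for RT1-Da (FDR 0.0416) and −2.00 for RT1-Bb (FDR 0.0463), and both values lost the call without Amlexanox replicate 3 (FDR 0.236 and 0.25).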

How the results depend on the processing

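Of 20 counts of class II genes called, 14 stayed within 1.5 times under each alternative run, among them Tat against Control and Tat-4OI against Tat, at 6 throughout. When only the groups compared were fitted, the counts were 1 (Tat-Cocaine-4OI against Tat-Cocaine), 0 (Amlexanox against Control), 2 (Tat by 4OI interaction) and 0 (Tat by Amlexanox interaction). With 0.1 CPM added both interactions gave 0, and with no filter the Amlexanox one gave 0. The 4OI interaction gave 2 in the fit to 21 libraries. Tat-Cocaine-Amlexanox against Tat-Cocaine gave 1 with 1 CPM added and 4 with array weights, and Tat-Cocaine-Tazemetostat against Tat-Cocaine gave 2 with array weights (1 higher, 1 lower) and the 4OI interaction 6; the estimate of these weights stopped short of its convergence tolerance. With the replicate block, Tat-Cocaine-4OI against Tat-Cocaine and the 4OI interaction gave 6 each (Ciita added in the one, RT1-Ba at FDR 0.0216 and Cd74 at FDR 0.0358 in the other), Tat-Cocaine-Amlexanox gave 1 and the Amlexanox interaction 4, and in the 5 comparisons with paired numbers the replicate block changed no count. Leaving out 1 library gave 0 to 3 for Amlexanox against Control, 0 to 1 for Tat-Cocaine-Amlexanox, 0 to 2 for Tat-Cocaine-Tazemetostat, 2 to 4 for the 4OI interaction and 0 to 4 for the Amlexanox one. The causes were not tested. Of 73 single differences with an unadjusted p of 0.05 or more, 39 turned sign under at least 1 alternative, so no direction should be read from them. Depth limits what can be seen near and below 0.5 CPM, where the genes other than Cd74 have their medians in the libraries without Tat.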

Other observations

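Of 8 comparisons of a compound in Tat cultures, the mean log2 level of the 4 chain genes minus that of Cd74 overlapped between the groups in 7. In the other, Tat-Cocaine-Amlexanox, it was 1.10 lower than in Tat-Cocaine, and in Tat-Amlexanox it was 0.39 lower than in Tat with overlap. These differences have no test. Amlexanox replicate 3 held several times more RNA of each chain gene than the other 17 libraries without Tat, and its Tmem171, at 1.18 CPM, was above their highest value of 1.04 CPM. Map3k8 (5.25 CPM), Tfr2 (1.74 CPM), Birc2 (73.98 CPM), Slpil2 (0.0522 CPM), Icam1 (34.1 CPM) and Cd40 (2.12 CPM) were within their range there.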
